A study of Mus musculus with 4 samples.

Results

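St18, Myt1 and Myt1l are the mouse genes of the Myt1 zinc finger family, and their probes were followed across cultured macrophages and osteoclasts. Probes were assigned to a member when the RefSeq accession the array design gives them belonged to that gene. This found 7 of the 56605 probes of the array: 2 for St18, 2 for Myt1 and 3 for Myt1l. The 3 genes are among 22911 that could be named in the same way. The study hybridised total RNA of mouse cells to 4 one-colour Agilent arrays, with 1 array for each of 4 groups. The groups were LysM-St18flox osteoclasts, wild-type osteoclasts, LysM-St18flox macrophages and wild-type macrophages. All cells were derived from bone marrow by 4 days with 25 ng/ml M-CSF, which yields macrophages, and the osteoclast groups then had 3 more days with 25 ng/ml M-CSF and 50 ng/ml RANKL, so RANKL and culture time changed together. LysM-St18flox names a floxed St18 allele and Cre under the lysozyme M promoter, which is active in myeloid cells, and such a deletion need not be complete in every cell. Strain, sex, age and number of mice, and whether groups shared mice, were not stated in the labels.

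The family encodes transcription factors that bind DNA through clusters of CCHC zinc fingers, with AAGTT as the core of their recognition sequence. Myt1 is known from oligodendrocyte precursors, neural progenitors and endocrine cells of the pancreas, and Myt1l from neurons, where it represses genes of other lineages. St18, also called Myt3 or Nzf3, is known from the nervous system and pancreatic beta cells, and in humans has been described as a breast cancer suppressor. The family works largely as repressors, with the Sin3 scaffolds, the histone deacetylases Hdac1 and Hdac2, and the demethylase Kdm1a with its CoREST partners among known associates. The study compared the genotypes in each cell type and the cell types in each genotype.

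On each array, between 59.0% and 63.2% of the spots stood well above background, and no spot was saturated. All 4 arrays lay on 1 slide. With 1 array per group no difference has a replicate check, so all comparisons are descriptions without p-values. The number of arrays limits the precision, and a difference counted as changed at 2-fold is a size and not a test. Levels are log2 of the processed signal over the 75th percentile of the array, so that 0 is a probe at that percentile. Errors are the estimate that the scanner software gives for a spot, and leave out the variation between arrays, cultures and mice. Osteoclast markers checked the labels: the 10 genes of the list were all at least 2-fold higher in osteoclasts than in macrophages in each genotype, with a median difference of 6.94 in LysM-St18flox and 5.68 in wild-type cells. The 8 macrophage markers were well above background on all 4 arrays.

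St18 was the only member measured well above background. Its brighter probe, A_55_P2846580, was well above background on every array. The processed signal of this probe, before any scaling between arrays, was 2311 ± 231 intensity units in LysM-St18flox osteoclasts and 2260 ± 226 in wild-type osteoclasts, with 405 ± 40.9 in LysM-St18flox macrophages and 780 ± 78.1 in wild-type macrophages. The lowest signal still well above background was between 15.9 and 25.9 units per array. As a share of the 75th percentile of the array the signal was 218% in LysM-St18flox osteoclasts and 294% in wild-type osteoclasts, with 34.9% in LysM-St18flox macrophages and 123% in wild-type macrophages. Osteoclasts of both genotypes therefore lay above both macrophage arrays, and LysM-St18flox macrophages were the lowest of the 4.

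**Figure D1:**
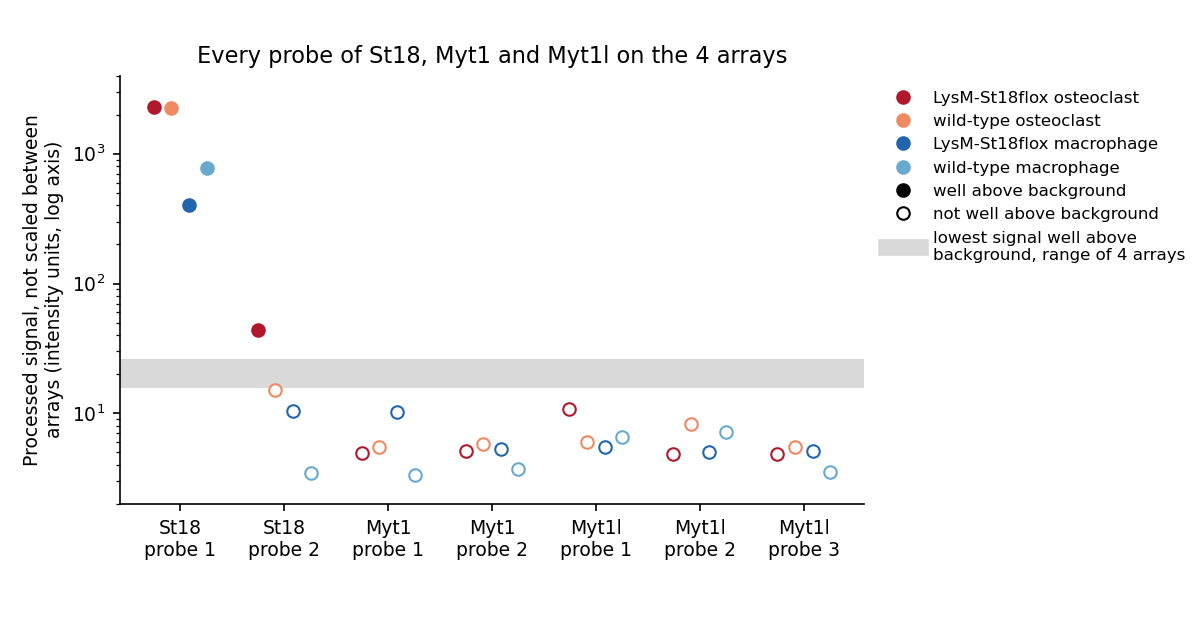
Processed signal of every St18, Myt1 and Myt1l probe (log axis, intensity units, not scaled between arrays) on the 4 arrays, 1 point per array, filled where well above background and open where not; the grey band spans the lowest well-above-background signals of the 4 arrays. All 4 points of St18 probe 1 and 1 point of St18 probe 2 are filled, and the 20 points of Myt1 and Myt1l are open.

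In macrophages, St18 was lower in LysM-St18flox cells. The log2 level was -1.52 in LysM-St18flox macrophages and 0.29 in wild-type macrophages, a difference of -1.81 ± 0.21 or a 3.51-fold lower level. Of 15164 genes measured in this comparison, 2.97% were at least 2-fold lower, and 73 genes were lower by more than St18. The 5th percentile of all genes was -0.83, the median -0.02 and the 95th percentile 0.84. No source used here says which exons are floxed or where in the transcript the probes sit, and so this value does not check the deletion. In RNA from whole cultures, fewer cells with St18 transcripts and fewer transcripts per cell cannot be told apart. The size of the difference depended on the scaling. Without scaling the 2 signals differed by -0.95, and with the arrays aligned on their spike-in control probes, an alternative chosen after seeing the data, by -1.11. The median of all genes well above background on all arrays moved as much as St18. It went from -0.03 to 0.84 without scaling and to 0.67 with spike-in scaling. St18 therefore lay equally far below that median under each of these scalings.

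In osteoclasts, the genotypes differed by less than 2-fold in St18. The log2 level was 1.12 in LysM-St18flox osteoclasts and 1.55 in wild-type osteoclasts, a difference of -0.43 ± 0.20 that did not reach 2-fold. Of 14611 genes, 3.94% were at least 2-fold lower here, and 2650 genes were lower by more than St18. The direction depended on the scaling, since the unscaled signals differed by 0.03 and the spike-in scaling gave 0.34. Spike-in scaling moved the median of all genes well above background on all arrays by 0.77, to 0.76, in the same comparison, so that St18 lay below that median under each of these scalings. The deposited table of the authors gave -0.45.

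**Figure D2:**
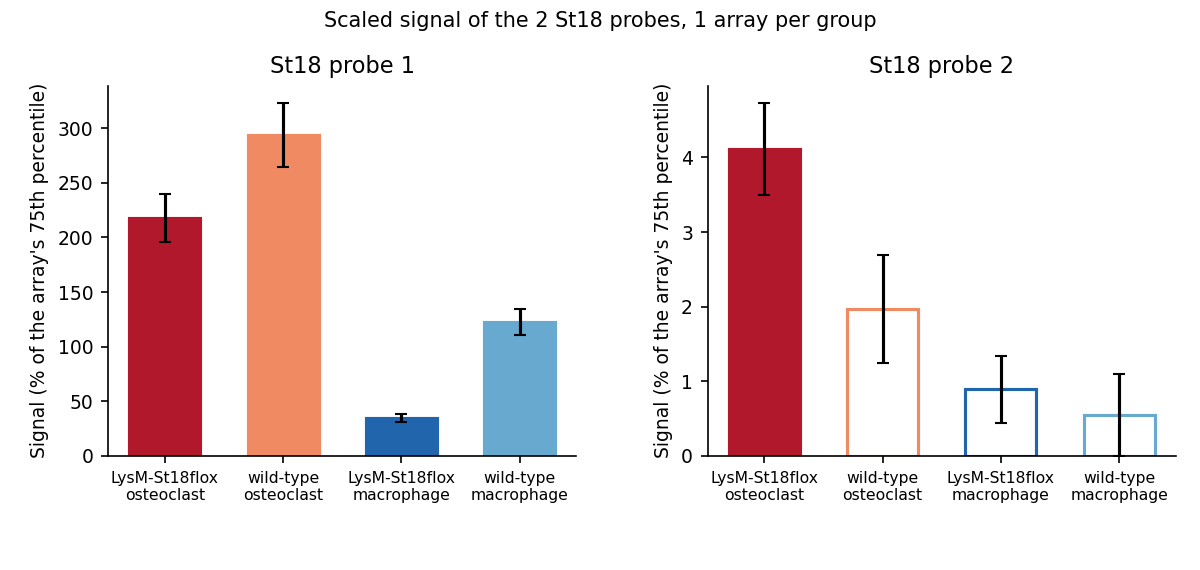
Scaled signal (% of the 75th percentile of the array) of St18 probe 1 (left) and probe 2 (right) on the 4 arrays, 1 bar per array; error bars are the scanner software's error of the spot, and open bars are signals not well above background. Probe 1 is at 34.9% in LysM-St18flox macrophages and 123% in wild-type macrophages, and probe 2 is filled only in LysM-St18flox osteoclasts, at 4.11%.

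St18 was higher in osteoclasts than in macrophages of both genotypes. In LysM-St18flox cells the difference was 2.64 ± 0.21, a 6.23-fold higher level, in a comparison where 10.9% of 15575 genes were at least 2-fold higher. In wild-type cells it was 1.26 ± 0.20, a 2.39-fold higher level, and 5.7% of 14735 genes were at least 2-fold higher. The direction was the same, and the size at least 2-fold, in both genotypes under the 7 alternative settings that use probe 1, and under the median over both probes, which takes in readings not well above background. In the LysM-St18flox comparison 1700 genes were at least 2-fold higher and 1905 lower, while median centring gave 2202 higher and 1522 lower. Between osteoclasts of the genotypes the split was 556 higher and 576 lower, against 995 and 316 after that centring and 318 and 219 with normexp background correction.

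The osteoclast-minus-macrophage difference of St18 in LysM-St18flox cells exceeded that in wild-type cells by 1.38 ± 0.29. The comparisons share arrays, and the interaction could not be tested with 1 array per group. Of 13667 genes well above background on all arrays, 3.2% had a response at least 2-fold higher in LysM-St18flox, 4.7% had one at least 2-fold lower, and 189 exceeded St18. The genotypes differed by -0.43 in osteoclasts and by -1.81 in macrophages.

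**Figure D3:**
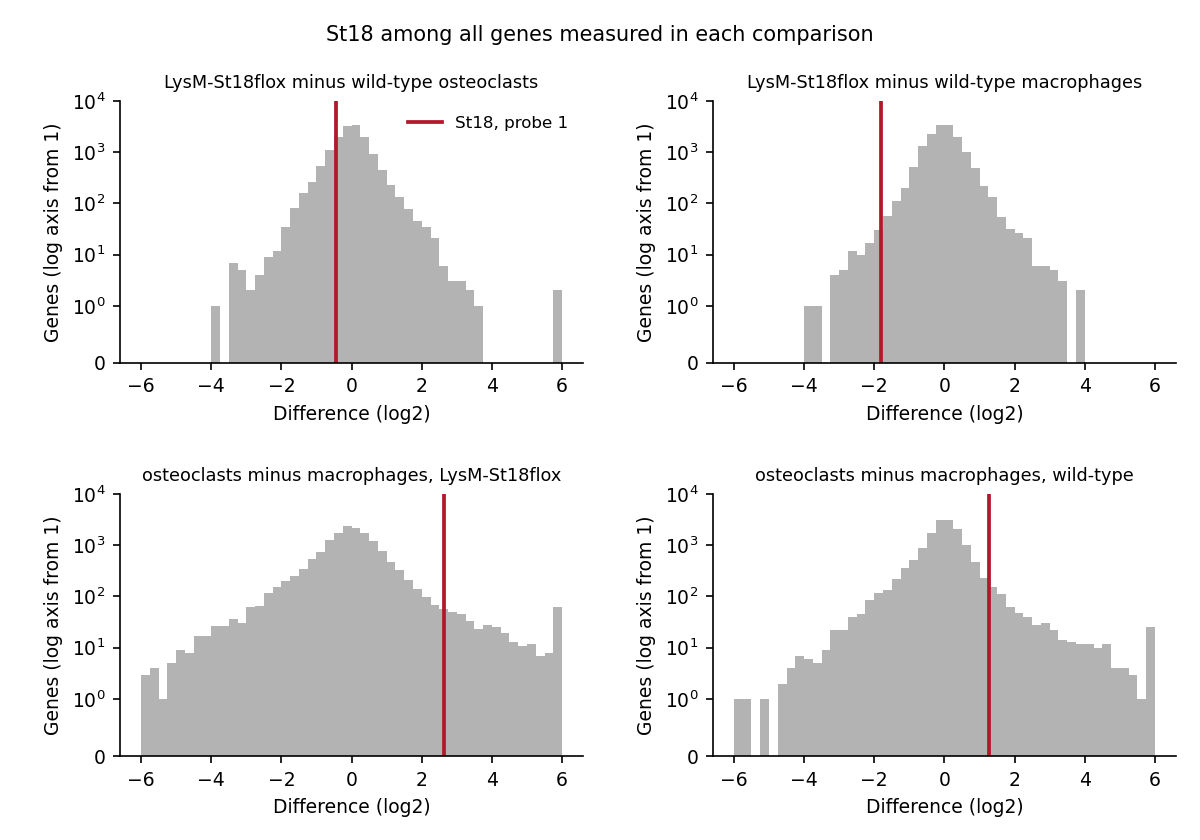
Histograms of the log2 difference of all measured genes in the 4 comparisons (number of genes on an axis that is logarithmic above 1; differences beyond 6 in either direction are counted in the end bins), with a red line at St18 probe 1. The line lies at -0.43 and -1.81 for LysM-St18flox minus wild-type osteoclasts and macrophages, and at 2.64 and 1.26 for osteoclasts minus macrophages of LysM-St18flox and wild-type cells.

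The other St18 probe, A_55_P2833609, was far dimmer, and 3 of its 4 readings were not well above background. It is listed under the same RefSeq transcript. Its processed signal was 43.7 ± 6.54 units in LysM-St18flox osteoclasts and 15.2 ± 5.62 in wild-type osteoclasts, with 10.4 ± 5.23 in LysM-St18flox macrophages and 3.48 ± 3.50 in wild-type macrophages. Only the LysM-St18flox osteoclast signal was well above background. The difference between osteoclasts of the genotypes was therefore a bound, at least 1.22-fold higher in LysM-St18flox, against a lower value with probe 1. Within LysM-St18flox, osteoclasts were at least 1.95-fold higher than macrophages, the same direction as probe 1. No fold is given for the wild-type pair or for the macrophage pair, in which no array was well above background. All 4 net signals, the median pixel of the spot minus that of its local background, exceeded 95% of the 308 negative control spots of their array. The deposited table of the authors holds probe 1 and not probe 2. With percentile scaling the probes thus disagreed in direction between osteoclasts of the genotypes. The values were -0.43 for probe 1 and 1.06 for probe 2, whose wild-type reading was not well above background. Without scaling or with spike-in scaling probe 1 was also higher in LysM-St18flox, by 0.03 and 0.34. These scalings move both probes of an array alike, so the gap between the probes stayed the same. The reason for the disagreement was not tested.

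**Figure D4:**
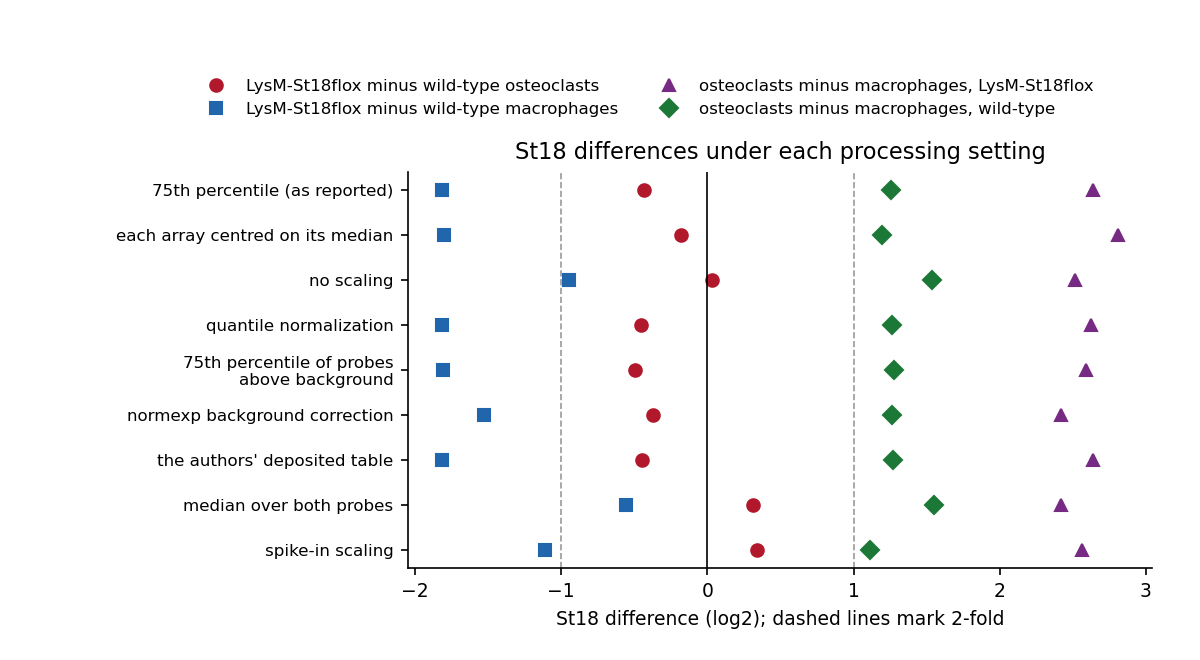
St18 differences (log2) in the 4 comparisons under the reported setting and 8 alternatives, 1 point per comparison and setting; the dashed lines mark 2-fold. Both osteoclast-minus-macrophage differences stay to the right of 1, the macrophage genotype difference runs from -1.82 to -0.95 with probe 1 and is -0.55 with the median over both probes, which takes in probe 2 readings not well above background, and the osteoclast genotype difference lies on both sides of 0, from -0.49 to 0.34.

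Myt1, the founding member of the family, was not well above background with either probe on any array. Its 8 signals lay between 3.33 and 10.2 units. Probe A_55_P2902357 read 4.95 in LysM-St18flox osteoclasts and 5.51 in wild-type osteoclasts, with 10.2 in LysM-St18flox macrophages and 3.33 in wild-type macrophages. Probe A_51_P407480 read 5.08 in LysM-St18flox osteoclasts and 5.76 in wild-type osteoclasts, with 5.31 in LysM-St18flox macrophages and 3.70 in wild-type macrophages. Only the 10.2 units of the first probe in LysM-St18flox macrophages were called different from background, and the scanner files give the other 7 spots their own error in place of a signal. The net signals of Myt1 stood at or above between 11.7% and 94.2% of the negative control spots.

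Myt1l, the neuronal member, was not well above background with any of its 3 probes on any array. Its 12 signals ran from 3.54 to 10.8 units. Probe A_55_P2001793 read 10.8 in LysM-St18flox osteoclasts and 5.98 in wild-type osteoclasts, with 5.49 in LysM-St18flox macrophages and 6.55 in wild-type macrophages. Probe A_55_P2056112 read 4.82 in LysM-St18flox osteoclasts and 8.27 in wild-type osteoclasts, with 5.05 in LysM-St18flox macrophages and 7.22 in wild-type macrophages. Probe A_51_P113518 read 4.89 in LysM-St18flox osteoclasts and 5.46 in wild-type osteoclasts, with 5.16 in LysM-St18flox macrophages and 3.54 in wild-type macrophages. Of the 12 spots, 4 were called different from background without being well above it, and in 5 the net signal exceeded 95% of the negative control spots. No order among the groups can be read from such values for Myt1 or Myt1l, and no fold is given. The values say that neither gene was well above background, not that it was absent.

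Sequence before the transcription start was examined for the family's core AAGTT on both strands (or AACTT, its reverse complement). The windows are the 250 bases before RefSeq start sites, build GRCm38.p6, and 35.3% of all 32851 windows hold the core. Each of the 3 start sites listed for Myt1 had 1 match, while among the 5 of Myt1l 3 had none, 1 had 1 and 1 had 2. The first Myt1 window and the Myt1l window with 2 matches are printed 5′ to 3′. They show what the core looks like before the 2 members that were not well above background on any array. Capitals mark the core on either strand.
Myt1, chr2:181763082-181763331, plus strand: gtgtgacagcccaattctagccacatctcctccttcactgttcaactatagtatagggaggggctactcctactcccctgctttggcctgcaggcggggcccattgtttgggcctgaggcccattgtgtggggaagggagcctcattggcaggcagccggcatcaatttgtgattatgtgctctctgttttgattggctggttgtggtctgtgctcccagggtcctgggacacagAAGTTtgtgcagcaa
Myt1l, chr12:29534972-29535221, plus strand: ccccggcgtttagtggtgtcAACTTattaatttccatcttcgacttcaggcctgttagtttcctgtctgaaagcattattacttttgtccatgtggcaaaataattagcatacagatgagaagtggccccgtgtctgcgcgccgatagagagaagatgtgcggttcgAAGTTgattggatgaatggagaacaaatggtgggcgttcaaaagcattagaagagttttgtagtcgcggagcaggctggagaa
A match is a description of these letters and not a site at which a factor was shown to bind.

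Genes with a pattern like that of St18 were sought among 13666 others well above background on all arrays, by the Euclidean distance over the 4 arrays of log2 levels centred on the mean of each gene. The nearest was Prrg4, a membrane protein with a vitamin K-dependent Gla domain. Its log2 level was -1.85 in LysM-St18flox osteoclasts and -1.44 in wild-type osteoclasts, with -4.56 in LysM-St18flox macrophages and -2.74 in wild-type macrophages. The distance was 0.057 and Pearson's r 0.9999 over the 4 arrays. Its other probe had r of 0.956, with osteoclast levels of -1.97 in LysM-St18flox cells and -2.23 in wild-type cells. The next were Prkaa2, a catalytic subunit of the AMP-activated kinase (distance 0.35), Rptoros, a transcript from the opposite strand of Rptor (0.35), Acsbg1, an acyl-CoA synthetase (0.37), and Pdgfa, a growth factor ligand (0.39). Like St18, all 5 were lowest in LysM-St18flox macrophages, and 4 of them were highest in wild-type osteoclasts, with Rptoros at -0.12 in LysM-St18flox osteoclasts and -0.16 in wild-type osteoclasts. They were chosen by nearness to the 4 values of St18, so being lowest in LysM-St18flox macrophages follows from the choice. Of the 13666 genes, 119 lay within a distance of 1 and 306 had r of at least 0.99. Ranking by r over these 4 points in place of distance kept Prrg4 alone among the first 5. The Prrg4 window is printed because this gene moved most like St18, and it holds the core once.
Prrg4, chr2:104849851-104850100, minus strand: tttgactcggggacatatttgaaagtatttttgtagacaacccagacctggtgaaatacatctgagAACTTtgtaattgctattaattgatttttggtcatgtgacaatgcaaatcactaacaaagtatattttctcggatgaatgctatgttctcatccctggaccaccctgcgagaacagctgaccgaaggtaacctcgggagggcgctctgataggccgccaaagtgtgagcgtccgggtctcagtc
The single windows of Prkaa2, Rptoros and Acsbg1 held no AAGTT, and of the 2 windows of Pdgfa 1 did.

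**Figure D5:**
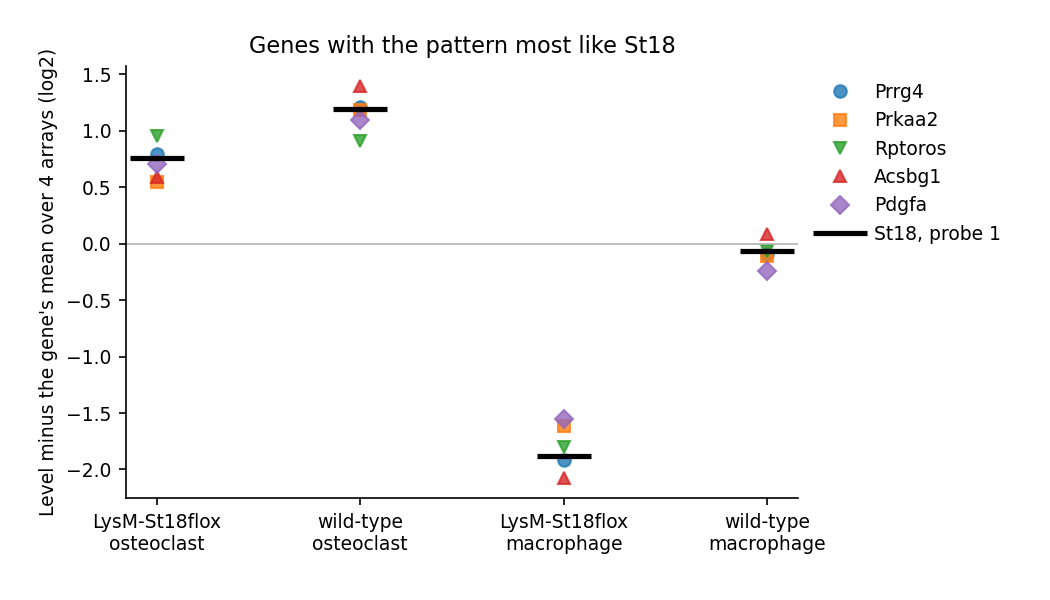
Log2 level minus the gene's own mean over the 4 arrays, for St18 probe 1 (black bars) and the 5 genes most like it (points), by group, 1 array each. All 6 genes are lowest in LysM-St18flox macrophages, and the distance from St18 runs from 0.057 for Prrg4 to 0.39 for Pdgfa. The 5 genes were chosen by that distance, so the shared lowest group follows from the choice.

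The corepressor associates of the family were present in both cell types. All 8 genes listed (Sin3a, Sin3b, Hdac1, Hdac2, Kdm1a, Rcor1, Rcor2 and Rcor3) were well above background on all 4 arrays. None reached a 2-fold difference between genotypes, where 6.27% of genes did in macrophages and 7.75% in osteoclasts. Their median genotype difference was 0.01 in osteoclasts and -0.13 in macrophages. By brightest probe the largest in either cell type was that of Hdac1, a deacetylase, at -0.50 in macrophages, where its log2 level was 4.48 in LysM-St18flox and 4.98 in wild-type cells. Between cell types Hdac2 alone passed 2-fold, in LysM-St18flox, where 23.1% of genes did so, and none in the wild type, where 13% did. This deacetylase had a log2 level of -2.09 in LysM-St18flox osteoclasts and -3.32 in LysM-St18flox macrophages. In wild-type cells the Hdac2 level was -2.42 in osteoclasts and -3.07 in macrophages, a difference of 0.65. The scaffold Sin3b had cell type differences of 0.86 in LysM-St18flox and 0.38 in wild-type cells. Between genotypes its brightest probe gave 0.22 in osteoclasts and -0.25 in macrophages, and another probe well above background on all arrays gave -0.54 in each.

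Of 10 genes listed because the family or St18 has been linked to them in other settings, 6 passed the background flag somewhere, and 3 of them (Tnf, Vegfa and Sp1) on all 4 arrays. Il1a, Il6, Hes1 and Yap1 were not well above background on any. Tnf, an inflammatory cytokine, had log2 levels of 1.21 in LysM-St18flox osteoclasts and 1.39 in wild-type osteoclasts, with 2.43 in LysM-St18flox macrophages and 2.64 in wild-type macrophages, so that osteoclasts were over 2-fold lower in both genotypes, as were 12.2% of genes in LysM-St18flox and 7.32% in wild-type cells, and the genotypes lay within 0.21 of each other. Its other probe, also well above background throughout, differed by -0.34 between LysM-St18flox osteoclasts and macrophages, short of 2-fold, by -1.01 in wild-type cells, and by 0.23 in osteoclasts and -0.45 in macrophages between genotypes. Il1b, another inflammatory cytokine, was 0.79 higher in LysM-St18flox macrophages and not well above background in wild-type osteoclasts. Hes5, a Notch target, passed the flag with 1 of its 2 probes and in LysM-St18flox osteoclasts alone, at -3.64. Neurog3, a factor of endocrine progenitors, was well above background on both LysM-St18flox arrays alone, at levels of -4.94 in osteoclasts and -4.98 in macrophages, near the lowest signals counted there (-5.50 and -5.56), while its wild-type osteoclast reading of -4.81 did not pass the flag. The level of Sp1, a factor that binds GC boxes, was 2.10 in LysM-St18flox osteoclasts and 2.10 in wild-type osteoclasts, with 2.30 in LysM-St18flox macrophages and 2.12 in wild-type macrophages.

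Vegfa, the angiogenic growth factor, was the list member that differed by over 2-fold between genotypes in both cell types. Its brightest probe had log2 levels of 1.72 in LysM-St18flox osteoclasts and -0.54 in wild-type osteoclasts, with 1.47 in LysM-St18flox macrophages and -0.96 in wild-type macrophages. Both LysM-St18flox arrays lay above both wild-type arrays, by 2.26 in osteoclasts and 2.44 in macrophages, where 3.81% and 3.3% of genes were at least 2-fold higher. Of its other probes, 2 went the same way and 1 the opposite way, at -2.33 in osteoclasts and -1.38 in macrophages. The 250 bases before its first listed start, with 2 GC boxes (GGGCGG or its reverse complement CCGCCC) in capitals and no AAGTT, are shown because this gene had the largest measured genotype difference of the list, and 32.7% of all windows hold a GC box of these letters. The window of its other listed start held 1 AAGTT and 1 GC box.
Vegfa, chr17:46032378-46032627, minus strand: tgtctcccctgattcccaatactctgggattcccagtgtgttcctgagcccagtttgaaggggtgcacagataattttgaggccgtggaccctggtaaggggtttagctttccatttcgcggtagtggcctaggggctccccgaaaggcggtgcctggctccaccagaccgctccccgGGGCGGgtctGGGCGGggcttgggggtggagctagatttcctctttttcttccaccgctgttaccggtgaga

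Lyz2 encodes lysozyme M and its promoter drives the Cre. Its log2 level was 4.44 in LysM-St18flox osteoclasts and 5.49 in wild-type osteoclasts, with 6.31 in LysM-St18flox macrophages and 6.38 in wild-type macrophages. The LysM-St18flox osteoclast array was the lowest, at -1.05 against wild-type osteoclasts, while the macrophage arrays differed by -0.07. Lyz2 was lower in osteoclasts than in macrophages, by 1.87 in LysM-St18flox and 0.89 in wild-type cells, the reverse of St18. Lyz1, its neighbour and close copy, whose probe may share target sequence, was at -0.40 in osteoclasts and -0.41 in macrophages between genotypes. The sequence before the Lyz2 start is printed as the promoter region of the gene that carries the Cre, with its 1 AAGTT core in capitals.
Lyz2, chr10:117282273-117282522, minus strand: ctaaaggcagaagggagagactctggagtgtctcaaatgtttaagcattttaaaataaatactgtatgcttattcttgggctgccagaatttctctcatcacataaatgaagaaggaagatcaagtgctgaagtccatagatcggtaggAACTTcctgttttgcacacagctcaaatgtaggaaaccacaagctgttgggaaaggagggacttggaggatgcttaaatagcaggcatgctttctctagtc

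Marker lists were read beside St18, because family members are best known from other tissues. Of 10 neuronal markers 5 were not well above background on any array (Syt1, Rbfox3, Stmn2, Nefl and Dcx), and their summed level, in multiples of the 75th percentile, was 17.4 in LysM-St18flox osteoclasts and 27.8 in wild-type osteoclasts, with 21.3 in LysM-St18flox macrophages and 24.7 in wild-type macrophages. Of 8 oligodendrocyte lineage markers 2 were not well above background on any array (Olig1 and Pdgfra), and the sums lay between 24.2 and 31.7. Of 8 pancreatic endocrine markers 7 were not well above background on any array, insulin 2 and glucagon included, and the sums lay between 0.0597 and 0.0964. None of these 3 sums was highest on both osteoclast arrays, where St18 was highest. Since 2 of them rest mostly on 1 gene, and the endocrine sum mostly on signals not well above background, they do not measure such cells. Whether such cells held St18 transcripts was not tested. The sums of 7 measured neutrophil markers were 7.52 in LysM-St18flox osteoclasts and 9.45 in wild-type osteoclasts, with 15.1 in LysM-St18flox macrophages and 13.0 in wild-type macrophages. Those of 5 B cell markers lay between 0.253 and 1.61 and those of 6 stromal markers between 1.15 and 1.64, with B cell markers higher in macrophages. The part of other marrow cells in the St18 difference was not tested. Of the 10 osteoclast markers, 8 were at least 2-fold higher in LysM-St18flox osteoclasts, with a median difference of 1.20, where 3.81% of all genes were. The exceptions were Ctsk, at 0.29, and Acp5, at -0.29. In macrophages 2 of the 9 measured were at least 2-fold lower in LysM-St18flox and none higher, with a median of 0.01. These 2 were the fusion genes Dcstamp, at 1.18 in osteoclasts and -1.81 in macrophages, and Ocstamp, at 1.17 and -1.01, while Atp6v0d2, a proton pump subunit, was at 1.77 and 0.93. Differences of opposite sign in the cell types that lay at least 2-fold apart, as in Dcstamp and Ocstamp, were found in 5.66% of 13667 genes.

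The chromosomal neighbours of St18 did not share its pattern as a group. None of the 3 closest genes on either side in the reference table had a named probe. Of the closest 3 on each side with one, a choice made after seeing the data, Npbwr1, Alkal1 and Sntg1 were not well above background on any array. Rb1cc1, an autophagy gene, was at -0.11 in osteoclasts and 0.64 in macrophages between genotypes, and Pcmtd1 at 0.12 and 0.43. Rrs1, a ribosome assembly factor, was at -0.14 in osteoclasts and -0.98 in macrophages between genotypes, and its osteoclast level exceeded its macrophage level by 1.91 in LysM-St18flox and by 1.07 in wild-type cells. Beside Myt1, the nearby genes Oprl1, Pcmtd2 and Polr3k passed the flag on all 4 arrays. Lkaaear1, also beside Myt1, passed it on the 2 LysM-St18flox arrays alone. Its level was higher there than in the wild type by at least 1.59 in macrophages and 0.51 in osteoclasts. In macrophages 3.3% of genes were at least 2-fold higher. Beside Myt1l, the closest genes with a probe, Gm20208 and C630031E19Rik, passed the flag on none, and the next ones, Eipr1 and Trappc12, on all 4.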

How the data were processed

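Total RNA of 4 mouse bone marrow cultures was labelled with Cy3 and hybridised to 4 arrays on 1 slide. The deposited processed intensity of each spot was made by Agilent Feature Extraction 11.0.1.1, per the file headers. From the values, it was not scaled between arrays, and spots not different from background carried their error estimate (within 10%) in its place. Flags deposited as 0 or 1 mark spots well above background. The authors also deposited a table of normalized log2 values, used as an alternative. No source used here says how it was made. Its 4 columns have the same median (9.39), genes were not centred, and its slope on the scanner log2 values was 0.97 to 1.01.

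Intensities were converted to log2, averaged over the spots of a probe and divided by the 75th percentile over probes (636 to 1159 units per array). Spots flagged as outliers were left out. Of 56605 probes, 32994 were named by RefSeq accession through a gene table of GRCm38.p6, used for names and neighbours only, since the headers name another build. The brightest probe stood for a gene, except for the members, whose every probe is given. A gene entered a comparison if either array passed the flag. A difference with 1 dim array was a bound against its lowest well-above-background signal or the dim signal, whichever was higher. Alternatives were median centring, no scaling, quantile normalization, a percentile over probes above background on all arrays, normexp with offset 50 (limma 3.58.1), the deposited table, both probes and spike-in scaling over 7 control probes. Scripts were tested on simulated data. Named genes were the members, the 5 genes nearest to St18 and genes of the lists. Members and lists were chosen with earlier results of these data known.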

Additional observations from a re-analysis of the deposited data

Results flagged for a closer look

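Among 63 named genes examined, 7 had genotype differences of opposite sign in osteoclasts and macrophages that lay at least 2-fold apart. This was 11.1% of them, against 5.66% of all 13667 genes that passed the background flag on every array. Most of the 63 came from lists chosen with earlier results known. The 63 also held the 5 genes nearest to St18, Rptoros among them, chosen on the same levels that give these differences. The percentages therefore cannot show whether the named genes had such differences more often than other genes. The interaction itself was not tested, since each group had 1 array. The osteoclast difference minus the macrophage difference was 1.78 for Rptoros (0.05 in osteoclasts and -1.74 in macrophages), 2.98 for Dcstamp (1.18 and -1.81) and 2.18 for Ocstamp (1.17 and -1.01). It was -1.92 for Mertk, a receptor for apoptotic cells (-0.26 in osteoclasts and 1.66 in macrophages), -1.49 for the mannose receptor Mrc1 (-0.08 and 1.41), -1.03 for Camp, a neutrophil granule gene (-0.26 and 0.77), and -1.06 for Cd79b, a B cell receptor subunit (-0.52 and 0.54). St18 probe 1 was lower in LysM-St18flox in both cell types with percentile scaling, but higher in osteoclasts without scaling (0.03) and with spike-in scaling (0.34).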

How the results depend on the processing

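Of 40 St18 values under alternative settings, 26 moved by less than the scanner software's error and 14 by more. Without scaling the genotype difference was -0.95 in macrophages and 0.032 in osteoclasts, the wild-type response 1.54 and the excess of the LysM-St18flox response 0.98. With the median over both probes, which takes in probe 2 readings not well above background, these were -0.55, 0.31, 1.55 and 0.87, and the LysM-St18flox response 2.42. Normexp gave -1.53 in macrophages and 2.42 for the LysM-St18flox response. Median centring gave -0.18 in osteoclasts. Spike-in scaling, added later, gave -1.11 in macrophages and 0.34 in osteoclasts, and moved the median of all genes by 0.70 and 0.77. The cause was not tested. Genes changed 2-fold between macrophages numbered 951, against 2093 with no filter on dim probes and 556 with normexp. In osteoclasts the counts were 1132, 2330 and 537, and for the wild-type response 1918, 2985 and 1322. For Myt1 and Myt1l every setting compares signals not well above background, so no difference was reported. Without that filter the Myt1 macrophage difference was 0.74, and -0.55 with normexp. No paired analysis was possible because each group had 1 array, and no replicate could be left out.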
